A study of Mus musculus with 23 samples.

Results

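The comparison described here is that of female *Pparg*Δ/Δ livers with female CTL livers at 20 weeks of age, 3 arrays against 3, which are 6 of the 23 arrays in the series. The members were taken by the genotype, sex and age in their labels, with 1 mouse per array, and every gene that the array measured was tested. *Pparg*Δ/Δ mice lack *Pparg* in the whole body on a mixed C57BL6/SV129 background, and CTL mice are controls of the same background; both groups received a standard chow diet. Male *Pparg*Δ/Δ (2 mice) and CTL (3 mice) livers of 20 weeks shared the model fit, and 3 *Pparg*Δ/Δ and 3 CTL females of 7 weeks were set beside the older females. The comparison asks how the female liver transcriptome differs when PPARγ is absent.

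PPARγ is a nuclear receptor that pairs with RXR on DNA, is activated by fatty acids and their derivatives, and is required for fat cells to form. In normal liver it is scarce, whereas fatty livers carry more of it. *Pparg*Δ/Δ mice have no adipose tissue and store lipid in the liver, so the absence of the receptor from liver cells and the absence of fat tissue cannot be told apart in these arrays. The female liver differs from the male liver mostly through the pattern of growth hormone release. Growth hormone acts through its receptor, JAK2 and STAT5b on hepatocyte genes. Some of the lists below hold genes known from that program, whose activity was not measured here.

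Signals are RMA values on the log2 scale, on which a difference of 1 is a doubling, and differences are *Pparg*Δ/Δ minus CTL throughout. A gene was called higher or lower at an adjusted p under 0.05 in limma. Array medians at 20 weeks lay between 7.19 and 7.31, and arrays of 1 group correlated at 0.991 to 0.995 over genes. Of 15 hepatocyte markers limma called none, 4 had an unadjusted p under 0.05, and the median difference was -0.06; the mean over the list lay between 13.47 and 13.54 in female *Pparg*Δ/Δ livers and between 13.55 and 13.61 in female CTL livers. Albumin (*Alb*) differed by -0.0046, adjusted p = 0.985. Of 10 adipocyte markers none was called and 2 had an unadjusted p under 0.05, and *Adipoq*, *Cfd* and *Retn* were highest on the array of female CTL replicate 1, at 5.85, 8.28 and 8.02.

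*Pparg* (115310969 to 115440419 on chromosome 6, NCBIM37) measured 10.56, 10.97 and 10.84 in female *Pparg*Δ/Δ livers, against 9.37, 9.42 and 9.25 in female CTL livers. All *Pparg*Δ/Δ arrays lay above all CTL arrays, with a difference of 1.44 (SE 0.12, adjusted p = 0.000162), and the gene was also higher in *Pparg*Δ/Δ males by 1.46 (adjusted p = 0.000337) and in *Pparg*Δ/Δ females of 7 weeks by 1.67 (adjusted p = 4.93e-05). The array gives 1 value for the whole gene, without the deleted part shown apart, so this value does not check the deletion. Of 19 genes of PPAR and RXR receptors and their partners, *Pparg* alone was called. The partner *Rxra* and the related receptor *Ppara* differed by -0.01, adjusted p = 0.97, and by 0.02, adjusted p = 0.962, and neither was called.

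Of 22061 genes, 502 (2.28%) passed the test. Of these, 288 genes (1.31%) were higher and 214 (0.97%) were lower in female *Pparg*Δ/Δ livers, and 3457 genes had an unadjusted p under 0.05. The median size was 0.81 among called increases and -0.67 among called decreases, and 107 genes rose and 51 fell by over 2-fold. The median difference over all genes was -0.03. Groups did not overlap for all 502 called genes and for 5274 of all genes (23.9%), so a lack of overlap alone is common with 3 arrays against 3. Every called gene named below therefore lacks overlap, and where this is mentioned it describes the values and adds no support to the call. Of the called genes, 25 are measured by probes that the array's annotation marks as matching other transcripts too. The counts depended on single arrays: 124 genes were higher without female CTL replicate 3 and 142 without female CTL replicate 1, 187 without *Pparg*Δ/Δ replicate 2 and 172 without *Pparg*Δ/Δ replicate 3, and 96 to 136 genes were lower when any 1 of these 4 arrays or female CTL replicate 2 was left out. Across all 11 fits that left out 1 array each, 180 genes were called every time.

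**Figure D1:**
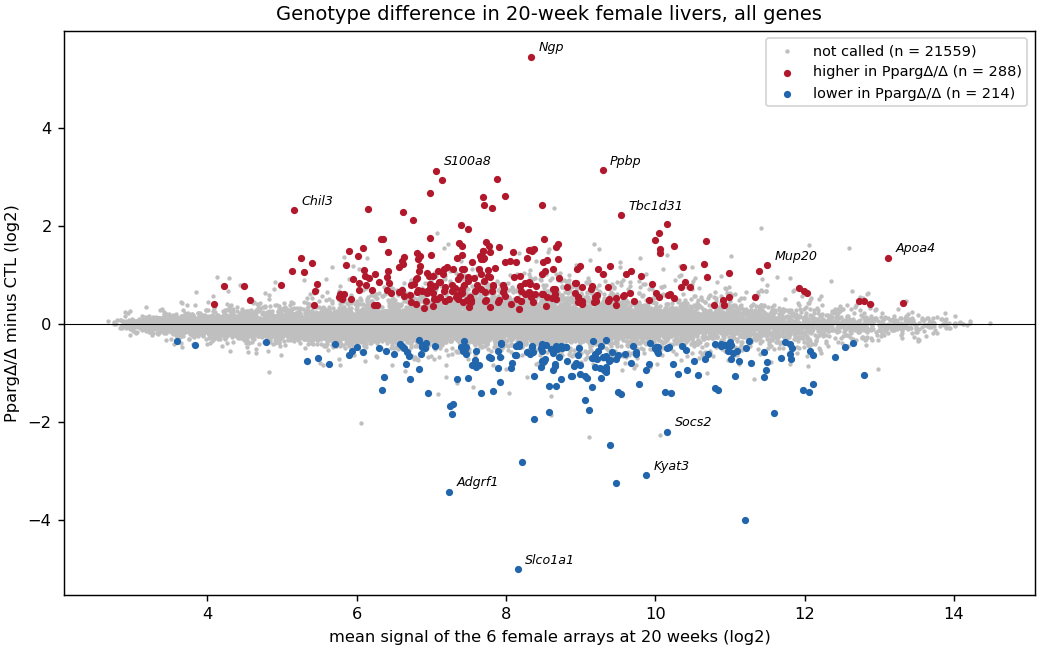
Difference between female *Pparg*Δ/Δ and female CTL livers at 20 weeks (log2, vertical axis) against the mean signal of the 6 arrays (log2, horizontal axis), 1 point per gene. Red points mark the 288 genes called higher and blue points the 214 called lower; *Ngp* lies highest at 5.45 and *Slco1a1* lowest at -4.99.

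Many of the genes that rose most were genes of neutrophils, the short-lived white cells that carry granules of antimicrobial proteins and proteases. Of 16 neutrophil markers, 13 were called higher and none lower, the median difference was 2.07, and all 16 had every *Pparg*Δ/Δ array above every CTL array. The mean over the list lay between 8.46 and 8.80 in female *Pparg*Δ/Δ livers and between 6.37 and 6.62 in female CTL livers. In fits with 1 array left out, 11 to 13 members were called. Whole livers were measured, so more cells of a type and more RNA per cell cannot be told apart, here or for any other marker below, and the part that RNA of these cells had in other differences was not tested.

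Promoters are shown for *Ngp*, *S100a9* and *Ltf*, 3 granule or cytoplasmic proteins of neutrophils that rose. The letters that C/EBP factors bind were searched in all neutrophil genes with a promoter, and these were chosen because they had a match. C/EBPα and C/EBPε are the factors known to drive granule genes during neutrophil maturation. The sequences are RefSeq's on GRCm38.p6, 300 bases each from 250 bases before to 50 bases after the gene start, and capitals mark TTGCNNAA or, on the other strand, TTNNGCAA.
*Ngp* promoter, chr9:110419558-110419857, plus strand: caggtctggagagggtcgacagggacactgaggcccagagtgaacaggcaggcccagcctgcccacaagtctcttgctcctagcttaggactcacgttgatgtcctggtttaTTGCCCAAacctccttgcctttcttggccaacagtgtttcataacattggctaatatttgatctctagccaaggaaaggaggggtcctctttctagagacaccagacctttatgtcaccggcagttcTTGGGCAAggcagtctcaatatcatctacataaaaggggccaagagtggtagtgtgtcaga
*S100a9* promoter, chr3:90695672-90695971, minus strand: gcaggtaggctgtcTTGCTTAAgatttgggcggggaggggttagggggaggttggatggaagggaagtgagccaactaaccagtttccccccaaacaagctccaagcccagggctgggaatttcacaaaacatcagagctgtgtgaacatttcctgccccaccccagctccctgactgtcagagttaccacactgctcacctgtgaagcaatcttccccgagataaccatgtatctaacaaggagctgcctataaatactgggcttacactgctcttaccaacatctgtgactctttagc
*Ltf* promoter, chr9:111019042-111019341, plus strand: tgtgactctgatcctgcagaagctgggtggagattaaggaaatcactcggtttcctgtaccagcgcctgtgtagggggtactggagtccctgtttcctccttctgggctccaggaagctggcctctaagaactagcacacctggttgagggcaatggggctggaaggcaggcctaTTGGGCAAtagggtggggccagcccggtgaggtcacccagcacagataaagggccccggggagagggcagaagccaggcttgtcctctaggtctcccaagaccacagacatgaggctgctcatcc
The matches began at -138 and -11 from the gene start in *Ngp*, at -236 in *S100a9* and at -75 in *Ltf*. A match was present in 7 of the 15 neutrophil genes with a promoter in the table (46.7%), namely these 3 and *Ly6g*, *Lcn2*, *Mmp8* and *Retnlg*. No match was found in *Elane*, *Mpo*, *Prtn3*, *Ctsg*, *Camp*, *S100a8*, *Cxcr2* or *Csf3r*. The share was 16.1% (35 of 217) among genes called higher, 10.5% (15 of 143) among genes called lower, 11.4% among genes tested and 10.8% of all 32851 promoters. The genes called higher include the called neutrophil genes, so these shares are not separate. A match of letters is not a binding site, and no binding was measured.

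*Ngp*, neutrophilic granule protein (110322344 to 110325516 on chromosome 9, NCBIM37), measured 10.76, 11.24 and 11.18 in female *Pparg*Δ/Δ livers, against 5.33, 5.67 and 5.84 in female CTL livers. The lowest *Pparg*Δ/Δ array lay 4.92 above the highest CTL array, and the difference of 5.45 (SE 0.38, adjusted p = 6.12e-05) is a 43.6-fold one, the largest increase on the array. *S100a8* and *S100a9* encode the subunits of calprotectin, which fills the neutrophil cytoplasm. *S100a8* had 8.48, 8.55 and 8.87 in female *Pparg*Δ/Δ livers, against 5.38, 5.65 and 5.48 in female CTL livers, a difference of 3.13 (SE 0.28, adjusted p = 0.000372). *S100a9* had 9.20, 9.46 and 9.21 in female *Pparg*Δ/Δ livers, against 6.63, 6.68 and 6.75 in female CTL livers, a difference of 2.60 (SE 0.19, adjusted p = 6.58e-05). The lowest *Pparg*Δ/Δ array was 2.83 above the highest CTL array for *S100a8* and 2.45 for *S100a9*.

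Genes of primary granules, which are made early in the bone marrow, rose with those of late granules. *Mpo*, myeloperoxidase, had 8.68, 9.22 and 9.05 in female *Pparg*Δ/Δ livers, against 6.34, 6.43 and 6.41 in female CTL livers, a difference of 2.59 (SE 0.21, adjusted p = 0.000174). *Elane*, neutrophil elastase, had 8.43, 8.43 and 8.38 in female *Pparg*Δ/Δ livers, against 6.31, 6.56 and 6.32 in female CTL livers, a difference of 2.02 (SE 0.14, adjusted p = 5.71e-05), with the *Pparg*Δ/Δ arrays spread over 0.05. *Ctsg*, cathepsin G, was higher by 1.74 (SE 0.17, adjusted p = 0.000597). In each of these 3 genes all *Pparg*Δ/Δ arrays lay above all CTL arrays. Among genes of later granules, lactoferrin (*Ltf*) had 8.93, 8.95 and 9.09 in female *Pparg*Δ/Δ livers, against 7.46, 6.37 and 6.05 in female CTL livers, a difference of 2.36 (SE 0.33, adjusted p = 0.00546), where female CTL replicate 1 was higher than the other CTL arrays. The collagenase *Mmp8* had 7.29, 7.77 and 6.92 in female *Pparg*Δ/Δ livers, against 4.89, 5.01 and 5.02 in female CTL livers, a difference of 2.36 (SE 0.26, adjusted p = 0.00127), and cathelicidin (*Camp*) was higher by 1.59 (SE 0.16, adjusted p = 0.000823). These 3 genes did not overlap between the groups either. The surface antigen *Ly6g*, by which mouse neutrophils are recognised, had 7.62, 8.17 and 7.64 in female *Pparg*Δ/Δ livers, against 5.58, 5.72 and 5.78 in female CTL livers, a difference of 2.11 (SE 0.21, adjusted p = 0.000555). *Retnlg*, a resistin-like secreted protein, had 7.42, 8.36 and 7.50 in female *Pparg*Δ/Δ livers, against 5.45, 5.68 and 5.30 in female CTL livers, a difference of 2.28 (SE 0.34, adjusted p = 0.0081). The 3 members that did not pass were *Lcn2* (1.54, adjusted p = 0.114), where female CTL replicate 2 was high at 12.93, *Prtn3* (0.94, adjusted p = 0.101) and *Csf3r* (0.82, adjusted p = 0.0702).

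**Figure D2:**
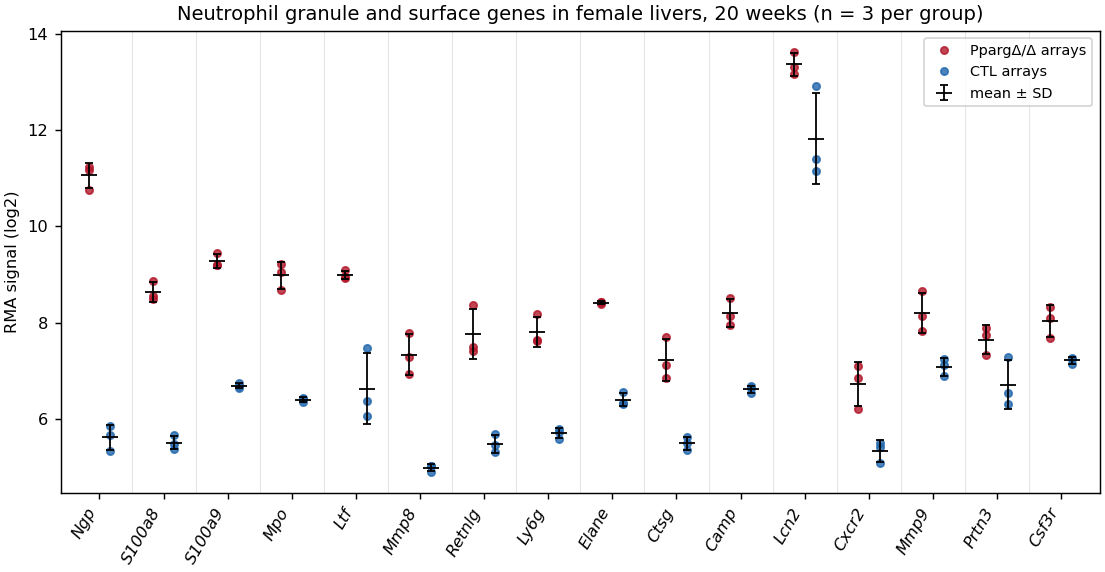
RMA signal (log2) of the 16 neutrophil markers on each female array at 20 weeks, with the 3 *Pparg*Δ/Δ arrays in red left of the 3 CTL arrays in blue and the mean and SD in black. Every gene has its *Pparg*Δ/Δ arrays above its CTL arrays, and the gap is widest for *Ngp*.

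Other genes of blood cells rose unevenly. *Ppbp*, a chemokine precursor stored in platelets, had 10.44, 10.60 and 11.56 in female *Pparg*Δ/Δ livers, against 8.22, 7.64 and 7.33 in female CTL livers, a difference of 3.14 (SE 0.27, adjusted p = 0.000281), and *Pparg*Δ/Δ replicate 3 was the highest. Another platelet chemokine, *Pf4*, was higher by 0.92 (SE 0.17, adjusted p = 0.0209), a call lost without female CTL replicate 1, 2 or 3 (adjusted p up to 0.072). A pair of myeloid genes rose with the neutrophil markers and did not overlap between the groups. *Chil3*, a chitinase-like protein of myeloid cells, had 6.22, 6.20 and 6.54 in female *Pparg*Δ/Δ livers, against 4.33, 3.95 and 3.72 in female CTL livers, a difference of 2.32 (SE 0.17, adjusted p = 6.58e-05). *Ifitm6*, which is found in myeloid cells, had 8.63, 9.52 and 8.61 in female *Pparg*Δ/Δ livers, against 6.31, 6.94 and 6.21 in female CTL livers, a difference of 2.43 (SE 0.30, adjusted p = 0.00239). Of 14 markers of blood progenitors and megakaryocytes only *Pf4* was called.

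Among 24 erythroid markers 3 were called, with a list median of 0.07. *Alas2*, the first enzyme of heme synthesis in red cell precursors, had 9.26, 9.82 and 9.66 in female *Pparg*Δ/Δ livers, against 8.37, 8.49 and 8.34 in female CTL livers, with no overlap and a difference of 1.18 (SE 0.12, adjusted p = 0.000861). The anion exchanger *Slc4a1* was higher by 1.32 (SE 0.23, adjusted p = 0.0171), a call lost without female CTL replicate 1 or 2 (adjusted p up to 0.064). The hemoglobin genes *Hba-a1* and *Hbb-bt* differed by 0.53, adjusted p = 0.147, and by 0.63, adjusted p = 0.204. The list had 1 called member without female CTL replicate 1 or 2 and 6 without female *Pparg*Δ/Δ replicate 1.

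Macrophage markers had positive differences in all 18 members, with a median of 0.60, but the groups overlapped in 12 of them and 3 were called. The integrin *Itgax* was higher by 0.97 (SE 0.13, adjusted p = 0.00321), the monocyte chemokine receptor *Ccr2* by 0.93 (SE 0.15, adjusted p = 0.0122) and the lipopolysaccharide co-receptor *Cd14* by 0.75 (SE 0.15, adjusted p = 0.0346). Female CTL replicate 2 was the highest CTL array for *Cd68* (10.50), *Adgre1* (10.17) and *Cd5l* (11.32), which mark Kupffer cells and other macrophages. The call of *Ccr2* was lost without female CTL replicate 3 (adjusted p = 0.0515) and that of *Cd14* without female *Pparg*Δ/Δ replicate 2 or 3 or female CTL replicate 1, 2 or 3 or male CTL replicate 2 (adjusted p up to 0.125), which left 1 called member without female CTL replicate 3.

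Of 11 genes that mark lipid-associated macrophages, 4 were higher and 1 was lower (*Atp6v0d2*, described with the female-biased genes), with a median of 0.93. Osteopontin (*Spp1*), a secreted matrix protein that is also made by bile duct cells, had 11.31, 10.46 and 10.75 in female *Pparg*Δ/Δ livers, against 9.31, 9.05 and 9.54 in female CTL livers, a difference of 1.54 (SE 0.21, adjusted p = 0.00378). The elastase *Mmp12* was higher by 1.76 (SE 0.34, adjusted p = 0.0257), the glycoprotein *Gpnmb* by 1.22 (SE 0.24, adjusted p = 0.0253) and the lysosomal tetraspanin *Cd63* by 0.99 (SE 0.17, adjusted p = 0.0171). *Trem2*, the lipid-sensing receptor that defines these cells, was not called (0.12, adjusted p = 0.661). The calls of *Mmp12* (lost without female *Pparg*Δ/Δ replicate 2 or 3 or female CTL replicate 1, 2 or 3, adjusted p up to 0.0882), *Gpnmb* (lost without female *Pparg*Δ/Δ replicate 3 or female CTL replicate 2 or 3, adjusted p up to 0.0946) and *Cd63* (lost without female *Pparg*Δ/Δ replicate 2 or 3 or female CTL replicate 1, 2 or 3, adjusted p up to 0.0615) rested on single arrays. In the fits that left out CTL replicate 2, CTL replicate 3 or *Pparg*Δ/Δ replicate 3 of the females 1 member was called higher, without female *Pparg*Δ/Δ replicate 2 there were 2 and without female *Pparg*Δ/Δ replicate 1 there were 6, with 1 member called lower each time. Limma called no marker of T and NK cells (0 of 16), B and plasma cells (0 of 11) or stellate cells (0 of 14), where 2, 2 and 6 had an unadjusted p under 0.05. Among antigen-presenting cell markers 1 of 12 was called (*H2-Eb1*, 1.17, adjusted p = 0.0485), among cholangiocyte markers 1 of 10 (*Spp1*), and among endothelial markers 1 of 12 was higher (*Lyve1*, 1.12, adjusted p = 0.0147) and 1 lower (*Stab2*, -0.55, adjusted p = 0.0363). The calls of *H2-Eb1* and *Stab2* were lost in 9 and 8 of the 11 fits with 1 array left out, those without female CTL replicate 2 or 3 and without female *Pparg*Δ/Δ replicate 2 or 3 among them (adjusted p up to 0.157 and 0.129). The call of *Lyve1* was lost without female CTL replicate 1 or 2 (adjusted p up to 0.0563).

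The genes that fell included targets of growth hormone. Of 17 genes of growth hormone receptor signalling and its targets, 5 were called lower and none higher, with a median of -0.18. The list holds the receptor, inhibitors of its signalling and targets together, so this count gives no direction of growth hormone action. The mean over the list lay between 9.37 and 9.51 in female *Pparg*Δ/Δ livers and between 9.83 and 9.93 in female CTL livers. The receptor *Ghr* (-0.11, adjusted p = 0.551), the transcription factor *Stat5b* (-0.18, adjusted p = 0.466) and insulin-like growth factor 1 (*Igf1*, -0.22, adjusted p = 0.173), the main hormone that growth hormone draws from the liver, were not called.

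Promoters are shown for *Cish*, a feedback inhibitor of STAT5 signalling and itself a known STAT5 target, and for *Igfals*, because the STAT letters TTCNNNGAA, the same on both strands, were found there. They are RefSeq's on GRCm38.p6, from 250 bases before to 50 after the gene start, with the matches in capitals.
*Cish* promoter, chr9:107296409-107296708, plus strand: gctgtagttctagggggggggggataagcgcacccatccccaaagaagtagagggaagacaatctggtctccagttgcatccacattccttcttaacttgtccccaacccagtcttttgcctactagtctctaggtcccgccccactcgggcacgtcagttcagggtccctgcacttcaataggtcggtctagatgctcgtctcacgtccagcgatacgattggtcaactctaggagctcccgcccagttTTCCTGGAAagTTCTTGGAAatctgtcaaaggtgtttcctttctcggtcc
*Igfals* promoter, chr17:24877594-24877893, plus strand: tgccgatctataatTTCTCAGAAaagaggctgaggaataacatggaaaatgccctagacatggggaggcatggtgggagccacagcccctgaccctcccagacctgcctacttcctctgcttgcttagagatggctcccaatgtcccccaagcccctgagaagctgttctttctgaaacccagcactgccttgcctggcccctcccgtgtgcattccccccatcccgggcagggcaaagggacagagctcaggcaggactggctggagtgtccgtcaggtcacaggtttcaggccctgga
The matches began at 0 and 11 in *Cish*, where 0 is the gene start, and at -236 in *Igfals*, in 2 of whose 3 listed promoters a match was found. A match was present in 5 of the 16 growth hormone genes with a promoter (31.2%), the others being *Socs3*, *Prlr* and *Bcl6*, none of which was called. *Igfbp2* and *Cux2*, which were called lower, had no match. The share was 8.76% among genes called higher, 9.09% among genes called lower, 9.04% among genes tested and 8.3% of all promoters.

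*Igfbp2*, a secreted protein that binds insulin-like growth factors, had 7.86, 7.93 and 7.76 in female *Pparg*Δ/Δ livers, against 11.35, 10.74 and 11.19 in female CTL livers. The highest *Pparg*Δ/Δ array lay 2.81 below the lowest CTL array, a 9.48-fold difference of -3.24 (SE 0.20, adjusted p = 3.55e-05). *Cish* had 8.54, 8.37 and 8.69 in female *Pparg*Δ/Δ livers, against 9.97, 9.56 and 9.34 in female CTL livers, a difference of -1.09 (SE 0.18, adjusted p = 0.0107). *Cux2*, a female-specific repressor and activator of sex-biased liver genes, had 8.09, 8.09 and 7.66 in female *Pparg*Δ/Δ livers, against 9.14, 8.85 and 9.61 in female CTL livers, a difference of -1.25 (SE 0.18, adjusted p = 0.00557). The study itself names *Cux2*, *Elane*, *Spp1*, *Crat*, *Gpam*, *Fads2*, *Hpgds* and *Aldoc*, all called here, and *Hsd3b5*. It used these same arrays, so the place of these genes in a list is no independent evidence. It also measured some of them by RT-qPCR, *Cux2*, *Hsd3b5*, *Crat* and *Gpam* among them. Of 38 genes listed as named by the study, 7 were called higher and 3 lower here, and 28 were not called. *Igfals*, which holds IGF-1 in the circulation, had 10.12, 9.87 and 9.49 in female *Pparg*Δ/Δ livers, against 10.78, 10.56 and 10.59 in female CTL livers, a difference of -0.81 (SE 0.17, adjusted p = 0.0389), a call lost without female *Pparg*Δ/Δ replicate 2 or 3 or female CTL replicate 1, 2 or 3 or male *Pparg*Δ/Δ replicate 1 or 2 or male CTL replicate 2 (adjusted p up to 0.127).

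*Socs2*, another feedback inhibitor of growth hormone signalling, has a pair of transcript clusters. The brighter, placed by the array's annotation at chromosome 12 (14501367 to 14501963) and marked there as a cluster whose probes also match other transcripts (a cross-hybridising type), had 9.24, 9.15 and 8.81 in female *Pparg*Δ/Δ livers, against 11.40, 11.04 and 11.33 in female CTL livers, a difference of -2.19 (SE 0.37, adjusted p = 0.0129), a call lost without female CTL replicate 1 (adjusted p = 0.0508). The dimmer one lies in the gene itself on chromosome 10 (94847996 to 94879462) and had 8.00, 7.97 and 7.83 in female *Pparg*Δ/Δ livers, against 9.34, 9.20 and 9.45 in female CTL livers, a difference of -1.40 with an adjusted p of 0.0106 when every cluster is counted in limma. Both clusters of *Socs2* thus had all *Pparg*Δ/Δ arrays below all CTL arrays. Without female CTL replicate 1, 3 members of the growth hormone list were called.

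Genes known as female-biased in mouse liver had 6 of 31 called lower and 1 higher, with a median of -0.40, and in 17 of them the groups did not overlap. *Atp6v0d2*, a subunit of the proton pump of lysosomes, had 8.92, 8.09 and 7.48 in female *Pparg*Δ/Δ livers, against 10.62, 10.72 and 10.53 in female CTL livers, a difference of -2.46 (SE 0.39, adjusted p = 0.00977), with the *Pparg*Δ/Δ arrays spread over 1.44. Smaller decreases depended on single arrays. The nuclear protein *Tox* differed by -0.71 (SE 0.12, adjusted p = 0.0121), a call lost without female CTL replicate 3 (adjusted p = 0.0508), the glutathione transferase *Gstt3* by -0.94 (SE 0.17, adjusted p = 0.0195), a call lost without female *Pparg*Δ/Δ replicate 3 or female CTL replicate 1 or 3 (adjusted p up to 0.0669), and the magnesium transporter *Nipal1* by -0.98 (SE 0.21, adjusted p = 0.039), a call lost without female *Pparg*Δ/Δ replicate 1, 2 or 3 or female CTL replicate 1, 2 or 3 or male *Pparg*Δ/Δ replicate 1 or 2 (adjusted p up to 0.128). The organic anion transporter *Slc22a27* went the other way, with 10.46, 10.17 and 9.999 in female *Pparg*Δ/Δ livers, against 8.95, 9.06 and 9.39 in female CTL livers, a difference of 1.07 (SE 0.13, adjusted p = 0.00253).

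Other female-biased genes did not pass. The cytochromes *Cyp2b9* (-0.18, adjusted p = 0.912), *Cyp3a41a* (-0.07, adjusted p = 0.932) and *Cyp2a4* (-0.11, adjusted p = 0.856) are among the most female-specific liver genes. The sulfotransferase *Sult3a1* had 9.94, 10.58 and 6.26 in female *Pparg*Δ/Δ livers, against 11.15, 11.12 and 11.31 in female CTL livers, so that *Pparg*Δ/Δ replicate 3 was far below the other arrays, with a difference of -2.26 (SE 0.82, adjusted p = 0.214).

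Male-biased genes, which are higher in male than in female liver, had 6 of 26 called lower and 2 higher, with a median of -0.16. *Slco1a1*, an organic anion transporter of the hepatocyte surface (141660206 to 141895331 on chromosome 6, NCBIM37), had 6.38, 5.69 and 4.93 in female *Pparg*Δ/Δ livers, against 10.42, 10.96 and 10.60 in female CTL livers. This is the largest decrease on the array, a 31.9-fold difference of -4.99 (SE 0.35, adjusted p = 6.22e-05), with the *Pparg*Δ/Δ arrays spread over 1.45. *Cyp2u1*, a fatty acid hydroxylase, differed by -1.17 (SE 0.11, adjusted p = 0.000485), and *Keg1*, an acyltransferase-like gene, by -1.33 (SE 0.18, adjusted p = 0.00451). The fatty acid elongase *Elovl3* had 6.13, 5.78 and 5.09 in female *Pparg*Δ/Δ livers, against 6.89, 7.29 and 6.84 in female CTL livers, a difference of -1.34 (SE 0.22, adjusted p = 0.0119). *Susd4*, a complement regulator (-1.09, adjusted p = 0.0192, lost without female *Pparg*Δ/Δ replicate 2 or 3 or female CTL replicate 1 or 2, adjusted p up to 0.074), and *Cyp7b1*, an oxysterol hydroxylase (-0.87, adjusted p = 0.0194, lost without female *Pparg*Δ/Δ replicate 2 or 3 or female CTL replicate 1 or 2, adjusted p up to 0.0683), were also called.

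The 2 male-biased genes that rose were *Mup20* and *Cyp4a12a*. *Mup20*, a urinary pheromone protein known as darcin, had 12.02, 12.05 and 12.24 in female *Pparg*Δ/Δ livers, against 11.07, 10.74 and 10.91 in female CTL livers, a difference of 1.20 (SE 0.09, adjusted p = 0.000153); its probes are of the cross-hybridising type, and other major urinary protein genes may share them. *Cyp4a12a*, an androgen-dependent fatty acid hydroxylase, had 7.50, 6.33 and 6.09 in female *Pparg*Δ/Δ livers, against 5.14, 5.24 and 5.08 in female CTL livers, a difference of 1.49 (SE 0.28, adjusted p = 0.0229) that was not called without female CTL replicate 1, 2 or 3 (adjusted p up to 0.079), and its near-identical neighbour *Cyp4a12b* differed by 1.19, adjusted p = 0.0593. *Hsd3b5*, a steroid dehydrogenase, differed by -0.79, adjusted p = 0.0657. Of 19 receptors and enzymes of sex steroids 2 were called, both lower. *Hsd17b6*, which acts on androgens, had 11.002, 11.35 and 11.74 in female *Pparg*Δ/Δ livers, against 12.89, 12.57 and 12.80 in female CTL livers, a difference of -1.39 (SE 0.18, adjusted p = 0.00284), and *Hsd17b2*, which inactivates estradiol and testosterone, differed by -0.93 (SE 0.09, adjusted p = 0.000597).

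**Figure D3:**
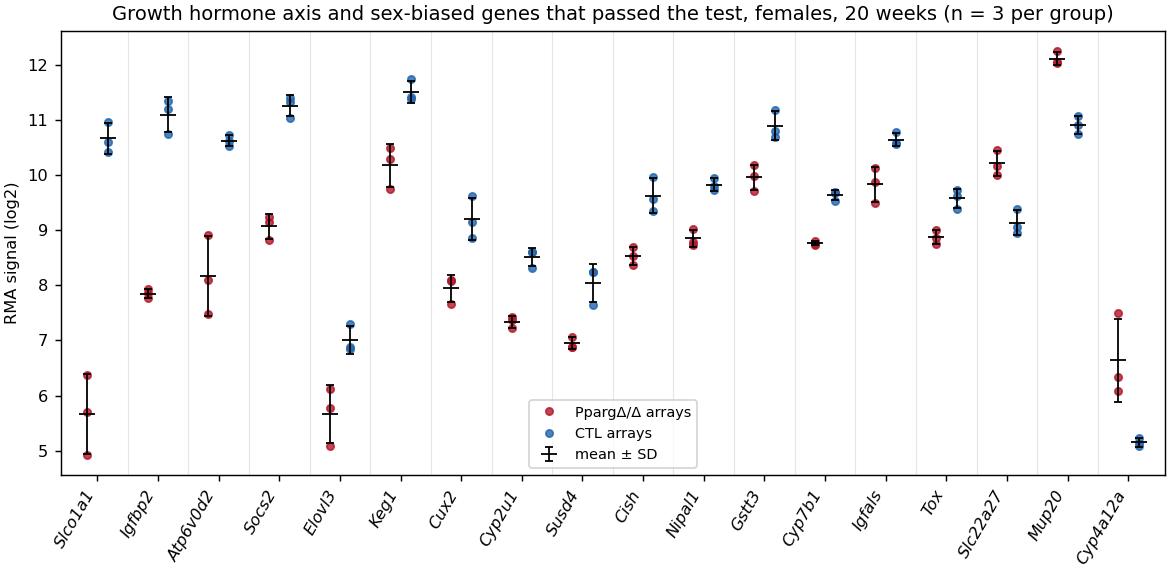
RMA signal (log2) on each female array at 20 weeks of the reported called genes of the growth hormone, female-biased and male-biased lists, ordered by difference, with the 3 *Pparg*Δ/Δ arrays in red left of the 3 CTL arrays in blue and the mean and SD in black. Most *Pparg*Δ/Δ arrays lie below CTL arrays, for genes of both sex biases, and *Slc22a27*, *Mup20* and *Cyp4a12a* lie above them.

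Few genes of lipid metabolism were called. *Mogat1*, which makes diacylglycerol from monoacylglycerol, had 8.80, 8.58 and 7.56 in female *Pparg*Δ/Δ livers, against 5.45, 5.40 and 6.08 in female CTL livers, a 6.36-fold difference of 2.67 (SE 0.32, adjusted p = 0.00216). *Cd36*, a receptor for fatty acid uptake, had 11.36, 11.61 and 11.60 in female *Pparg*Δ/Δ livers, against 10.16, 9.59 and 9.73 in female CTL livers, a difference of 1.70 (SE 0.19, adjusted p = 0.0013). *Fabp2*, a fatty acid-binding protein best known in the intestine, had 10.70, 11.02 and 11.41 in female *Pparg*Δ/Δ livers, against 9.57, 9.28 and 9.53 in female CTL livers, a difference of 1.58 (SE 0.22, adjusted p = 0.00453). In these 3 genes no *Pparg*Δ/Δ array was as low as a CTL array, and the gaps were 1.48, 1.19 and 1.13.

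*Pgd*, an enzyme of the pentose phosphate pathway that makes NADPH, had 11.29, 10.96 and 11.26 in female *Pparg*Δ/Δ livers, against 10.10, 10.40 and 10.15 in female CTL livers, a difference of 0.95 (SE 0.15, adjusted p = 0.00963). *Apoa4*, an apolipoprotein of triglyceride-rich particles, had 13.61, 13.89 and 13.88 in female *Pparg*Δ/Δ livers, against 12.26, 12.82 and 12.25 in female CTL livers, a difference of 1.35 (SE 0.22, adjusted p = 0.0119), a call lost without female CTL replicate 1 or 3 (adjusted p up to 0.0507). Both genes had all *Pparg*Δ/Δ arrays above all CTL arrays. *Apom*, which carries sphingosine phosphate on HDL, had 9.35, 9.47 and 9.42 in female *Pparg*Δ/Δ livers, against 10.45, 10.29 and 10.31 in female CTL livers, with the *Pparg*Δ/Δ arrays spread over 0.12 and a difference of -0.93 (SE 0.10, adjusted p = 0.000972). Carnitine acetyltransferase (*Crat*) was higher by 0.75 (SE 0.11, adjusted p = 0.00622), and *Fgf21*, a hormone of the fasted and the stressed liver, by 0.59 (SE 0.09, adjusted p = 0.00875). The delta-6 desaturase *Fads2* (0.43, adjusted p = 0.0147, lost without female CTL replicate 2, adjusted p = 0.0511) and hepatic lipase (*Lipc*, -0.71, adjusted p = 0.0297, lost without female *Pparg*Δ/Δ replicate 2 or 3 or female CTL replicate 1 or 3, adjusted p up to 0.105) were also called.

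By list, de novo fatty acid synthesis had 2 of 23 members higher (median 0.22), triglyceride synthesis 2 of 15, fatty acid uptake and binding 2 higher and 1 lower of 15, fatty acid oxidation 2 of 38 (median 0.12), lipoproteins 2 higher and 1 lower of 22, polyunsaturated fatty acid synthesis 1 of 11 (*Fads2*) and the pentose phosphate pathway 1 of 8 (*Pgd*). The calls behind these counts that were not named above were *Insig2*, which holds back the activation of SREBP (1.08, adjusted p = 0.0208), the acyltransferase *Gpam* (0.68, adjusted p = 0.0476) and the lipase cofactor *Apoc2* (0.47, adjusted p = 0.0278). They were lost in 5, 9 and 6 of the 11 fits with 1 array left out, with an adjusted p up to 0.0622, 0.149 and 0.0988, and all 3 without female *Pparg*Δ/Δ replicate 1 or 3 or CTL replicate 3 of that sex. Fatty acid synthase (*Fasn*, 0.07, adjusted p = 0.914), the stearoyl-CoA desaturase *Scd1* (0.16, adjusted p = 0.569) and *Srebf1* (-0.09, adjusted p = 0.818), the transcription factor of this pathway, were not called. Limma called none of 20 lipid droplet proteins and lipases, of which 8 had an unadjusted p under 0.05. Perilipin 2 (*Plin2*), the main coat protein of hepatocyte droplets, had 12.19, 11.90 and 12.43 in female *Pparg*Δ/Δ livers, against 11.59, 11.62 and 11.30 in female CTL livers, which did not overlap but missed the threshold, with a difference of 0.67 (SE 0.16, adjusted p = 0.0684). By RT-qPCR the study reports *Plin2* and *Scd1* as raised in *Pparg*Δ/Δ females alone, as female-biased in *Pparg*Δ/Δ mice, or as both. Genes of cholesterol synthesis had 22 of 23 negative differences, a median of -0.32 and 1 called member, *Msmo1* (-0.62, adjusted p = 0.0433, lost without female *Pparg*Δ/Δ replicate 2 or 3 or female CTL replicate 1, 2 or 3 or male CTL replicate 3, adjusted p up to 0.137). Without female *Pparg*Δ/Δ replicate 1, 6 genes of cholesterol synthesis were called lower.

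Genes of bile acid synthesis and transport had 5 of 25 called lower and none higher, with a median of -0.15. Beside *Slco1a1* and *Cyp7b1* these were the basolateral exporter *Abcc3* (-1.06, SE 0.19, adjusted p = 0.0166), the related transporter *Slco1a4* (-1.30, SE 0.29, adjusted p = 0.0473) and the sterol hydroxylase *Cyp27a1* (-0.46, SE 0.09, adjusted p = 0.0297). The rate-limiting enzyme *Cyp7a1* (-0.31, adjusted p = 0.818) and the uptake transporter *Slc10a1* (-0.15, adjusted p = 0.29) were not called. *Slco1a1* was called in all 11 fits with 1 array left out. The calls were lost for *Abcc3* without female *Pparg*Δ/Δ replicate 2 or female CTL replicate 1 or 3 (adjusted p up to 0.0643), for *Cyp27a1* without female *Pparg*Δ/Δ replicate 1, 2 or 3 or female CTL replicate 1, 2 or 3 (adjusted p up to 0.113) and for *Slco1a4* in 9 of the 11 fits with 1 array left out, among them those without any 1 of the 6 female arrays (adjusted p up to 0.152). In the fits that left out 1 of the 6 female arrays, 1 to 3 members of the list were called.

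Of 45 other genes of drug metabolism 5 were lower and none was higher, with a median of -0.15. The carboxylesterase *Ces2a* had 8.93, 8.74 and 8.79 in female *Pparg*Δ/Δ livers, against 10.18, 10.23 and 10.35 in female CTL livers, with a gap of 1.25 between the groups and a difference of -1.43 (SE 0.11, adjusted p = 0.000153). The glutathione transferases *Gsta4* and *Gstt2* differed by -1.38 (SE 0.21, adjusted p = 0.00903), and by -1.28 (SE 0.17, adjusted p = 0.00303). *Cyp2c37* differed by -1.22 (SE 0.19, adjusted p = 0.0105) and *Cyp2c54* by -1.81 (SE 0.32, adjusted p = 0.0177), a call lost without female *Pparg*Δ/Δ replicate 2 or female CTL replicate 1 or 3 (adjusted p up to 0.0636); Cyp2c genes are closely similar in sequence, and their probes may share signal.

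Several of the largest differences belonged to genes outside the lists described so far, which do not hold every gene of a pathway. *Adgrf1*, an adhesion G protein-coupled receptor, had 5.74, 5.34 and 5.52 in female *Pparg*Δ/Δ livers, against 9.07, 9.12 and 8.65 in female CTL livers. The gap was 2.91, and the difference of -3.41 (SE 0.16, adjusted p = 4.44e-06) had the smallest adjusted p of all genes. *Kyat3*, a kynurenine aminotransferase of tryptophan breakdown, had 8.16, 8.39 and 8.48 in female *Pparg*Δ/Δ livers, against 11.59, 11.19 and 11.49 in female CTL livers, a difference of -3.08 (SE 0.27, adjusted p = 0.000329). *Sucnr1*, the succinate receptor, differed by -1.83 (SE 0.31, adjusted p = 0.0132), a call lost without female CTL replicate 1 (adjusted p = 0.0528), the amino acid transporter *Slc43a1* by -1.80 (SE 0.22, adjusted p = 0.0022) and the sulfotransferase *Sult5a1* by -1.94 (SE 0.22, adjusted p = 0.00136).

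Among increases of this kind, the hydroxysteroid sulfotransferase *Sult2a3* had 9.16, 9.50 and 9.43 in female *Pparg*Δ/Δ livers, against 6.07, 6.43 and 6.72 in female CTL livers, a 7.78-fold difference of 2.96 (SE 0.17, adjusted p = 2.04e-05). *Tbc1d31*, a centrosomal protein, had 10.80, 10.27 and 10.88 in female *Pparg*Δ/Δ livers, against 8.42, 8.70 and 8.18 in female CTL livers, a difference of 2.22 (SE 0.18, adjusted p = 0.000162). The surface proteins *Ly6a2* and *Ly6d* were higher by 2.93 (SE 0.30, adjusted p = 0.000781), and by 2.44 (SE 0.29, adjusted p = 0.00192). Within each of these 4 genes all *Pparg*Δ/Δ arrays lay above all CTL arrays.

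Inflammatory and matrix genes were called in small numbers. Of 35 cytokines, chemokines and interferon response genes 33 had positive differences, with a median of 0.39, and 2 were called, *Ccl3* and *Cxcl16* (0.77, adjusted p = 0.0342, lost without female *Pparg*Δ/Δ replicate 3 or female CTL replicate 1, 2 or 3 or male CTL replicate 2, adjusted p up to 0.112). *Ccl3*, a chemokine for macrophages and neutrophils, had 7.86, 8.66 and 9.18 in female *Pparg*Δ/Δ livers, against 6.89, 7.01 and 6.80 in female CTL livers, a difference of 1.66 (SE 0.25, adjusted p = 0.0081); *Pparg*Δ/Δ replicate 1 was the lowest of its group. Of 29 fibrosis and matrix genes 5 were higher, with a median of 0.31, among them *Spp1*, *Mmp12* and *Thbs1*, thrombospondin 1 (1.27, SE 0.20, adjusted p = 0.00977). Type I collagen (*Col1a1*, 0.39, adjusted p = 0.243) and *Timp1* (0.69, adjusted p = 0.165), which rise in scarring livers, were not called, and 2 or 3 members of the list were called in the fits that left out any 1 female array other than *Pparg*Δ/Δ replicate 1. Of 26 acute phase proteins 1 was called, *Saa3* (1.63, adjusted p = 0.0484), a serum amyloid A, and its call was lost in 8 of the 11 fits with 1 array left out, those without any 1 of the 3 female CTL arrays among them (adjusted p up to 0.149).

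In eicosanoid synthesis, *Ptges*, the inducible prostaglandin E synthase, had 8.32, 8.43 and 8.53 in female *Pparg*Δ/Δ livers, against 6.90, 6.996 and 6.94 in female CTL livers, with a gap of 1.33 and a difference of 1.48 (SE 0.19, adjusted p = 0.00314). The prostaglandin D synthases went in opposite directions: *Hpgds*, the hematopoietic form, was higher by 0.92 (SE 0.14, adjusted p = 0.00906), and *Ptgds* differed by -0.90 (SE 0.16, adjusted p = 0.0184), a call lost without female *Pparg*Δ/Δ replicate 3 or female CTL replicate 1 or 3 (adjusted p up to 0.072). The other 18 of 21 members were not called. *Anxa2*, annexin A2, was higher by 1.48 (SE 0.18, adjusted p = 0.00216). It was 1 of the 3 genes that rose among 12 fetal liver genes, whereas alpha-fetoprotein (*Afp*) differed by -0.03, adjusted p = 0.928.

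Stress, iron and energy genes gave few calls, with 1 higher of 19 in the NRF2 list, 1 lower of 24 in the p53 list, 1 higher and 1 lower of 24 in the endoplasmic reticulum stress list, 1 higher and 2 lower of 30 for glucose metabolism, and 2 higher and 1 lower of 18 for iron and heme. Aldolase C (*Aldoc*) differed by -0.84 (SE 0.09, adjusted p = 0.000972), *Trib3*, a pseudokinase of the integrated stress response, by -0.83 (SE 0.12, adjusted p = 0.00819), and *Bmp6*, the signal by which the liver senses iron, by -0.93 (SE 0.12, adjusted p = 0.00356). These 3 were called in all 11 fits with 1 array left out, unlike heme oxygenase 1 (*Hmox1*, 1.01, adjusted p = 0.0484), glucose-6-phosphatase (*G6pc*, 0.48, adjusted p = 0.0468), the insulin receptor (*Insr*, -0.37, adjusted p = 0.0346) and the p53 target *Sesn1* (-0.46, adjusted p = 0.0312), which lost their calls in 9, 10, 6 and 7 of these fits, with an adjusted p up to 0.152, 0.15, 0.126 and 0.119, those without any 1 of the 3 female CTL arrays or without female *Pparg*Δ/Δ replicate 2 or 3 among them for all 4 genes. The iron transporter *Slc11a2* was higher by 0.61 (SE 0.11, adjusted p = 0.0192), a call lost without female CTL replicate 1 or 3 (adjusted p up to 0.072). Limma called no subunit of the respiratory chain (0 of 29, median -0.05), no circadian clock gene (0 of 19, median -0.22) and no cell cycle gene (0 of 26, median 0.38), where 2, 4 and 13 had an unadjusted p under 0.05; the cell cycle list had 6 without female CTL replicate 2.

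**Figure D4:**
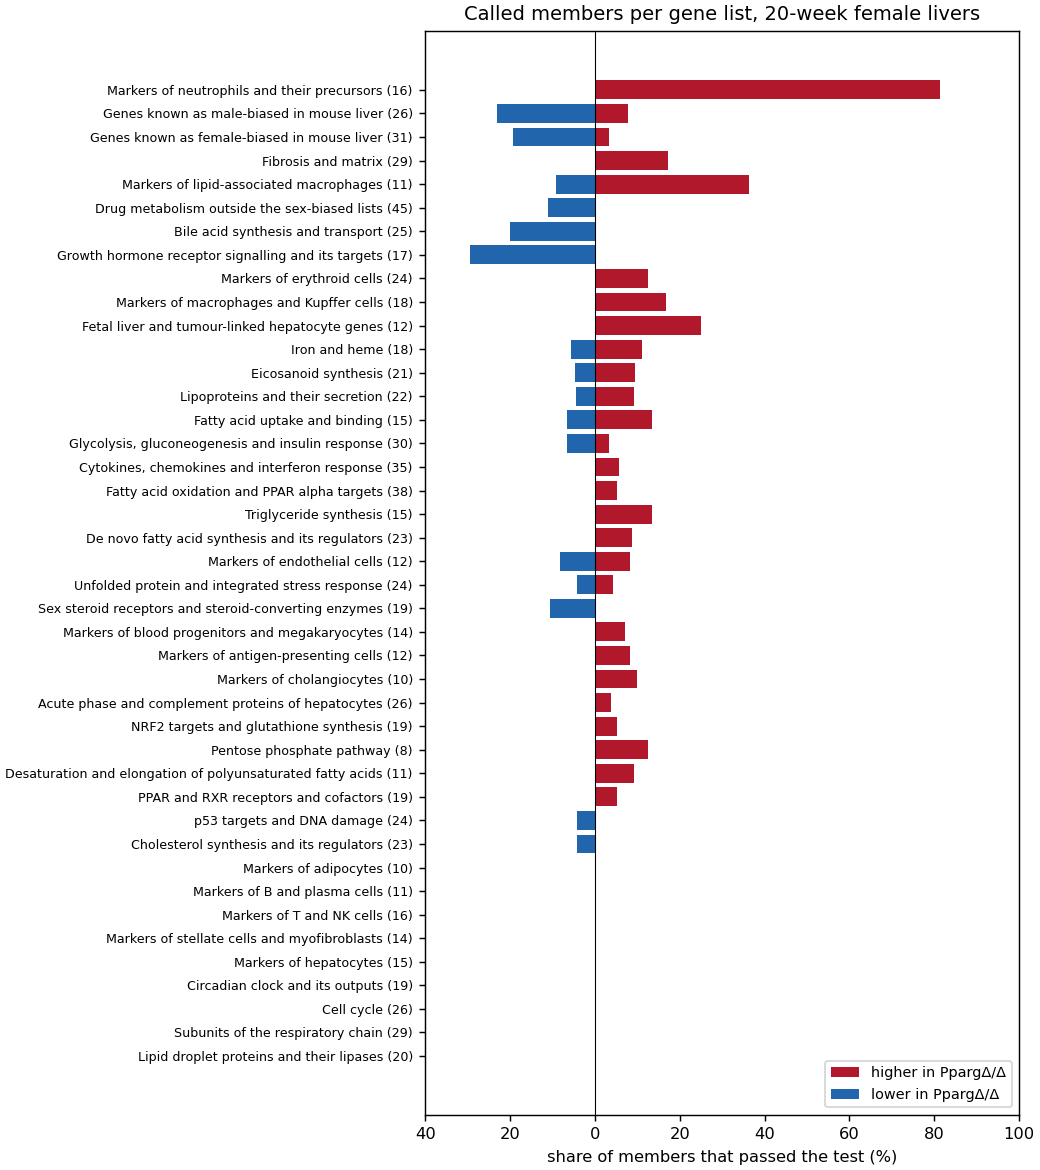
Share of the measured members of each gene list that passed the test in female livers at 20 weeks (%, horizontal axis), with members higher in *Pparg*Δ/Δ livers drawn to the right and those lower to the left, and the number measured in parentheses. The neutrophil list stands highest, with 13 of its 16 members called; 9 lists, at the bottom, have none.

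Males of the same age gave 381 called genes (1.73%), 224 higher and 157 lower in *Pparg*Δ/Δ livers, from 2 mice against 3. Of the 502 genes called in females 437 had a difference of the same sign in males, and 113 were called in both sexes with the same sign, 60 higher and 53 lower, which is 22.5% of the female and 29.7% of the male calls. No gene was called in opposite directions. *Adgrf1* differed by -3.39 (adjusted p = 1.04e-05) in males, *Igfbp2* by -2.72 (adjusted p = 0.000206), *Kyat3* by -2.66 (adjusted p = 0.00165), *Ces2a* by -1.09 (adjusted p = 0.00177), *Cd36* by 2.66 (adjusted p = 0.000153), *Mogat1* by 2.11 (adjusted p = 0.015) and *Ptges* by 2.32 (adjusted p = 0.000422). For genes called in females alone, the difference between sexes needs its own test.

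That test called 17 genes (0.0771%), against 1639 with an unadjusted p under 0.05, and 11 of the 17 were among the 502. The values are the female minus the male difference. *Sult2a3* was called higher in *Pparg*Δ/Δ females and differed by -0.27 (adjusted p = 0.545) in males, with an interaction of 3.23 (SE 0.25, adjusted p = 0.000391). *Mup20* and *Elane*, called higher in females too, had interactions of 1.32 (SE 0.14, adjusted p = 0.00675), and of 1.79 (SE 0.21, adjusted p = 0.00831). *Elane* had 6.44 and 7.06 in male *Pparg*Δ/Δ livers, against 6.56, 6.43 and 6.57 in male CTL livers, and a male difference of 0.23 (adjusted p = 0.523). Of the neutrophil list *S100a9* was the other member called, with 2.04 (SE 0.28, adjusted p = 0.0255) and 0.56 (adjusted p = 0.224) in males, and 3 neutrophil genes were called higher in males, *Ngp* by 2.63 (adjusted p = 0.0107) among them.

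In other genes of the 17 the males had the larger difference. *Hsd3b5* had 5.99 and 6.26 in male *Pparg*Δ/Δ livers, against 12.75, 12.43 and 12.54 in male CTL livers, and the interaction was 5.65 (SE 0.29, adjusted p = 1.43e-05). *Cyp2b9* had 13.20 and 11.42 in male *Pparg*Δ/Δ livers, against 5.52, 5.43 and 7.45 in male CTL livers, and its interaction was -6.35 (SE 0.77, adjusted p = 0.0122). The metallothionein *Mt1*, which binds zinc, had 12.11 and 12.75 in male *Pparg*Δ/Δ livers, against 9.83, 10.69 and 10.22 in male CTL livers, and its interaction was -2.46 (SE 0.35, adjusted p = 0.0381). The male groups did not overlap in any of these 3 genes. The interaction test picked them from the same values, and the share of all genes without overlap in males was not counted, so this adds no support. In females *Mt1* differed by -0.27, adjusted p = 0.637. The steroid hydroxylase *Cyp17a1* (-1.62, SE 0.18, adjusted p = 0.00718), the ectonucleotidase *Nt5e* (-1.46, SE 0.15, adjusted p = 0.00675) and the transcription factor *Mybl1* (-1.66, SE 0.19, adjusted p = 0.00831) were higher in *Pparg*Δ/Δ males by 1.92, 1.71 and 2.29.

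*Slco1a1* had an interaction of -3.55 (SE 0.53, adjusted p = 0.0414), with a male difference of -1.45 (adjusted p = 0.0965), *Chil3* one of 1.93 (SE 0.25, adjusted p = 0.0178) and *Aldoc* one of -1.07 (SE 0.13, adjusted p = 0.0142). The call of *Aldoc* was lost without female CTL replicate 1 or 3 (adjusted p up to 0.0548) and that of *Chil3* in 4 fits, those that left out female CTL replicate 2, male CTL replicate 1 or 2, or *Pparg*Δ/Δ replicate 1 of the males (up to 0.0863). *S100a9*, *Mt1* and *Slco1a1* lost theirs in 6, 8 and 8 of the 11 fits with 1 array left out, each without female CTL replicate 1, 2 or 3 among others, with an adjusted p up to 0.103, 0.125 and 0.14. *Hsd3b5*, *Sult2a3*, *Mup20*, *Nt5e*, *Cyp17a1*, *Mybl1*, *Elane* and *Cyp2b9* passed in all 11.

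**Figure D5:**
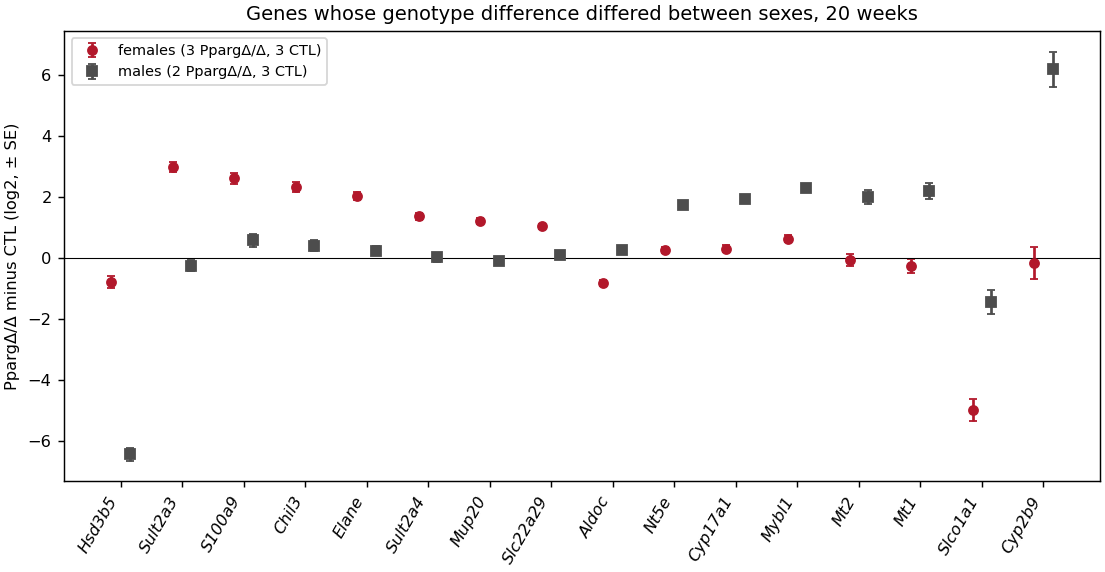
*Pparg*Δ/Δ minus CTL difference (log2, with its SE) at 20 weeks for the 16 genes called in the interaction that are reported here, with females as red circles left of males as grey squares. *Sult2a3*, *Elane* and *Mup20* lie above 0 in females and near 0 in males, *Cyp2b9* lies near 0 in females and at 6.17 in males, and *Hsd3b5* lies at -6.45 in males.

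In females of 7 weeks 408 genes (1.85%) were called, 231 higher and 177 lower in *Pparg*Δ/Δ livers. The tables of each age were normalized separately, so values were set side by side with no test between ages. Of the genes called at 20 weeks, 460 had the same sign at 7 weeks, and 127 were called at both ages with the same sign, 71 higher and 56 lower, which is 25.3% of the calls at 20 weeks and 31.1% of those at 7 weeks; none was opposite. *Pparg*, *Adgrf1*, *Igfbp2*, *Kyat3*, *Ces2a*, *Cd36*, *Ptges*, *Apom*, *Apoa4*, *Anxa2*, *Tbc1d31* and *Ngp* were among the 53 genes called at both ages of females and in males, always with the same sign. The calls of *Apom*, *Apoa4* and *Ces2a* at 7 weeks were lost in 8, 6 and 4 fits that left out 1 array, those without female CTL replicate 1 or 3 among them.

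The *Pparg*Δ/Δ females of 7 weeks differed from CTL females by 2.75 (adjusted p = 0.00411) for *Ngp*, 1.51 (adjusted p = 0.0222) for *S100a8*, 1.21 (adjusted p = 0.0918) for *S100a9*, 1.05 (adjusted p = 0.0809) for *Mpo* and 0.62 (adjusted p = 0.33) for *Elane*, each a smaller value than at 20 weeks. *Alas2* was 2.42 (adjusted p = 1.6e-05) and *Spp1* 1.16 (adjusted p = 0.00871) at 7 weeks. Of the growth hormone genes *Igfbp2* was -3.48 (adjusted p = 5.39e-06), *Cux2* -0.79 (adjusted p = 0.14) and *Cish* -0.24 (adjusted p = 0.75). *Atp6v0d2* had a difference of -2.56 (adjusted p = 0.00325) at 7 weeks and *Slco1a1* one of -0.98 (adjusted p = 0.676). The male-biased *Cyp4a12a* and *Mup20* were higher at both ages, with 6.79 (adjusted p = 0.00021) and 1.54 (adjusted p = 0.00453) in the young females, and *Cyp4a12a* had the larger value at 7 weeks. At 7 weeks the call of *S100a8* was lost without female CTL replicate 1 or 2.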

How the data were processed

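Each Affymetrix Mouse Gene 1.0 ST array received the liver RNA of 1 mouse. The authors deposited log2 values made by robust multi-array averaging (RMA), for each age separately, with Affymetrix Expression Console 1.1.2637.26569 per the submitters' processing notes; RMA makes the arrays of an age share 1 distribution and gives 1 value for a whole transcript cluster. Coordinates follow NCBIM37. The deposited tables of each age and of the whole series held the same values (largest difference 0). Of 28944 clusters 25465 named exactly 1 gene; the cluster of highest mean stood for each of 22061 genes, of which 1845 had more than 1. Names were updated through RefSeq accessions (22115 clusters) or symbols (1815 current, 625 older), and 910 kept that of the file. Raw scans and the authors' own statistics were not used here, and some genes are not reported here.

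The 11 arrays of 20 weeks were fitted together in limma 3.58.1 (R 4.3.3) as 4 group means, with 4.00 prior degrees of freedom, so the spread of the males enters the female test. P values were adjusted by the Benjamini-Hochberg method over all genes of the female and male comparisons together, and for the interaction over all genes alone, with a threshold of 0.05 and no minimum difference. The 12 arrays of 7 weeks were fitted separately (prior degrees of freedom 4.55). Every adjusted p in the text is limma's, and the number of arrays limits the precision.

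The comparison, its gene lists and the genes named were chosen with earlier results of these data known. The rule named *Pparg*, the 15 largest called differences without overlap in each direction, up to 6 called members and 3 uncalled members of each of 43 lists, the genes the study names and the genes of the interaction, which made 252 genes; others, and 13 gene families, were chosen after their values were seen. Lists are described by counts and medians, with no test. Alternatives were adjustment within the comparison, the 6 female arrays alone, removal of genes whose group means all lay under 6, counting every cluster, array weights, robust moderation with a mean-variance trend, centring on array medians, the whole-series table, a replicate block, a minimum difference of 0.5 and fits that left out each array in turn. In a simulation of 22061 genes, 50 of them changed at each size, the female comparison recovered 28, 88, 100 and 98% at log2 changes of 0.5, 1, 2 and 3, with 2 false calls in 159. Tables and figures came from Python 3.11.15 with matplotlib 3.10.9, numpy 2.4.6 and pandas 2.3.3.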

Additional observations from a re-analysis of the deposited data

Results flagged for a closer look

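The genotype difference was not the same in females and males at 20 weeks for 17 genes by limma's interaction test, of which 16 are reported, given as the female minus the male difference (log2). Positive values were 5.65 for *Hsd3b5*, 3.23 for *Sult2a3*, 2.04 for *S100a9*, 1.93 for *Chil3*, 1.79 for *Elane*, 1.33 for *Sult2a4*, 1.32 for *Mup20* and 0.94 for *Slc22a29*. Negative values were -6.35 for *Cyp2b9*, -3.55 for *Slco1a1*, -2.46 for *Mt1*, -2.05 for *Mt2*, -1.66 for *Mybl1*, -1.62 for *Cyp17a1*, -1.46 for *Nt5e* and -1.07 for *Aldoc*. *Slc22a29*, an organic anion transporter, and *Sult2a4*, whose probes are of the cross-hybridising type, lost their calls in 7 and 9 of the 11 fits with 1 array left out (adjusted p up to 0.0999 and 0.186), and *Mt2* in 9 (up to 0.134), those without female CTL replicate 3 among them for all 3 genes. The males had 2 *Pparg*Δ/Δ arrays, so these values rest on fewer mice than the female differences.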

How the results depend on the processing

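With array weights, 587 genes were higher and 401 lower in *Pparg*Δ/Δ females of 20 weeks, against 288 and 214 without weights, and all 502 genes remained among the 988. With a trend and robust moderation, 5 genes had a negative interaction in place of 9. With 1 array left out, counts ran from 124 to 385 (higher) and 96 to 209 (lower) in females of 20 weeks, 4 to 15 and 5 to 22 in the interaction, and 110 to 272 and 77 to 192 in females of 7 weeks. A group left with 1 mouse was assumed to vary like the others. Other settings called 535 genes (502 of them among the 502) with adjustment within the comparison, 536 (396) with the female arrays alone, 590 (485) without dim genes, 432 (432) with every cluster counted, 534 (475) with the trend, 496 (471) after centring and 397 (397) with the minimum difference.

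Deviations from the group means correlated at 0.222, 0.285 and -0.0462 between same-numbered *Pparg*Δ/Δ and CTL females. Between differently numbered ones the correlations ran from -0.34 to 0.127. Deviations from a mean of 3 arrays depend on each other, so these values cannot decide whether the replicate numbers pair the mice. With the replicate block 316 genes were higher and 205 lower in females of 20 weeks, 413 of these 521 among the 502, 8 and 7 in the interaction, and 185 and 136 in females of 7 weeks. No named gene that was called in the main fit or in an alternative reversed its sign between them. Sign changes of female differences called in neither fit were not counted. The number of mice limits small differences: the smallest called one was 0.31.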

Other observations

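Further gene families were chosen after their values were seen and are described without a test. Of 21 genes for leucine, isoleucine and valine, 5 were called lower and none higher, with a median of -0.22, among them *Dbt* (-0.74, adjusted p = 0.00977), a subunit of the branched-chain keto acid dehydrogenase. The count depended on single arrays: 1 gene was called without female CTL replicate 1 or 2, 2 without female *Pparg*Δ/Δ replicate 2 or 3 or CTL replicate 3 of that sex, and 3 without female *Pparg*Δ/Δ replicate 1. Of 41 genes for other amino acids 9 were lower and none was higher (median -0.24), among them histidine ammonia-lyase (*Hal*, -0.68, adjusted p = 0.0129), *Gcat* (-0.67, adjusted p = 0.0125), which acts on threonine, and aminoacylase 1 (*Acy1*, -0.73, adjusted p = 0.00796). These 3 were called in all 11 fits with 1 array left out, but the count was 4 without female CTL replicate 1, female *Pparg*Δ/Δ replicate 2 or 3, or male CTL replicate 2, and 5 without any 1 of the other CTL arrays. In males the medians were -0.07 and -0.07, with 0 and 2 genes lower, and the difference between sexes was called for none of these genes.

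Of 12 annexins 3 were called higher and none lower (median 0.18), of 13 S100 calcium-binding proteins 3 (median 0.09) and of 15 bone and mineral matrix genes 5 (median 0.16), with 3 of the last called without female *Pparg*Δ/Δ replicate 1 or 3 or CTL replicate 2 or 3 of that sex. *Anxa1*, an annexin of myeloid and epithelial cells, was higher by 1.33 (SE 0.16, adjusted p = 0.00177), and *S100a11* by 1.04 (SE 0.15, adjusted p = 0.00562). The probes of *S100a11* are of the cross-hybridising type, as are those of its other cluster. The osteocalcin genes *Bglap2* and *Bglap3*, which are near-identical and may share signal, were higher by 1.39 (SE 0.13, adjusted p = 0.000352), and by 1.56 (SE 0.11, adjusted p = 7.98e-05). Of 20 immunoglobulin kappa segments all had positive differences (median 0.82) and 5 were called. None was called without female CTL replicate 2, 1 without female CTL replicate 3, 2 without replicate 1 of either female group, 3 without female *Pparg*Δ/Δ replicate 2 or male CTL replicate 1 or 2, and 8 without female *Pparg*Δ/Δ replicate 3. The called cluster of *Igk* is of the cross-hybridising type, and segments may share signal, so they are not independent. Its other clusters were not called when every cluster is counted in limma (adjusted p from 0.0589 to 0.125). Of 14 zinc transporters of the Slc39a family 1 was called higher and 2 lower, with a median of 0.11, and without any 1 of the 3 female CTL arrays 0 were higher and 1 lower. *Slc39a4* differed by -1.02 (SE 0.16, adjusted p = 0.00977).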
